A study of Mus musculus with 18 samples.

Results

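Bdnf, Ntf3, Ntrk2, Ntrk3, Ngfr and Sort1, the neurotrophins and neurotrophin receptors of the mouse brain, were followed by gene symbol through RNA sequencing of 3 brain tissues. These were 6 of the 48440 genes in the deposited table. The study related short-term memory to genetic variation in Diversity Outbred mice, which are bred from several founder strains so that no animal repeats the genome of another. RNA was taken from the tissues labelled MDTH and HPF and from the prefrontal cortex (PFC), each from mice labelled as high performers and from mice labelled as low performers. The 6 groups were MDTH high, MDTH low, HPF high, HPF low, PFC high and PFC low, with 3 libraries each. No other treatment, age or genotype distinguishes them in the labels, and the sources used here do not say what was dissected under each tissue name. Whether an allele of 1 founder moved any value was not tested.

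Neurotrophins are secreted growth factors that are made as precursors, cut to their mature form and released by neurons, in part in response to activity. Mature BDNF acts mainly through the receptor tyrosine kinase TrkB (Ntrk2) and the Ntf3 product mainly through TrkC (Ntrk3), while the uncut precursors bind the low-affinity receptor Ngfr together with sortilin (Sort1). In the hippocampus BDNF and TrkB are best known for their part in synaptic plasticity. Ntrk2 and Ntrk3 each encode a full-length receptor with its kinase and truncated forms without it, and astrocytes make mostly the truncated TrkB. The table gave 1 value per gene, so these forms could not be told apart.

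Thalamic relay and hippocampal marker sums were highest in the tissues labelled MDTH and HPF, while cortical sums overlapped between PFC and HPF. Summed over 8 genes of thalamic relay neurons, MDTH libraries held 130340 to 265608 normalized counts, against 4775 to 20245 in the libraries of the other tissues. Hippocampal genes, summed over 8, ranged from 50908 to 68589 in HPF and from 6562 to 29042 elsewhere, and cortical genes, summed over 8, from 112279 to 133184 in PFC, with MDTH at 11096 to 30896 and HPF at 76152 to 122873. Estimated depth was 42941006 to 47535113 reads in MDTH, 76705451 to 88633852 in HPF and 41156227 to 48838302 in PFC. Choroid plexus and ependymal genes, summed over 6, stood at 75658 to 161439 in 4 libraries, namely HPF high 2, PFC high 1, PFC low 2 and PFC low 3, and at no more than 10957 in the rest. In MDTH and PFC the library names are written in one style for high and another for low performers, so performance and whatever that naming stands for cannot be told apart. In HPF the names share 1 style, although the letters in them also differ between high and low performers. No MDTH or PFC name uses that style, and the depth of HPF lay above both. Differences of HPF from the other tissues and whatever that naming stands for therefore cannot be told apart. As in any bulk RNA, fewer cells of a type and less RNA per cell cannot be told apart.

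Promoter windows are shown for Bdnf and Ntf3, because Ntf3 differed most between tissues and because 1 Bdnf window held the single motif match found. They run from 250 bases before to 50 after a RefSeq transcription start (GRCm38.p6), 5' to 3' on the gene's strand, with the match in capitals. Bdnf lies on the plus strand of chromosome 2 at chr2:109692186-109692485 and Ntf3 on the minus strand of chromosome 6 at chr6:126166695-126166994 and chr6:126164911-126165210.
Bdnf: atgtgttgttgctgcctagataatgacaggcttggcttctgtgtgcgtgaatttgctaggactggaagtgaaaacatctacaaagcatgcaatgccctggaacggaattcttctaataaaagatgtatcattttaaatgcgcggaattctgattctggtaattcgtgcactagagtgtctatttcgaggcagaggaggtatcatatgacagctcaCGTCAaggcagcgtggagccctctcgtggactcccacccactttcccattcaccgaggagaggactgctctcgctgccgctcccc
Ntf3, first start: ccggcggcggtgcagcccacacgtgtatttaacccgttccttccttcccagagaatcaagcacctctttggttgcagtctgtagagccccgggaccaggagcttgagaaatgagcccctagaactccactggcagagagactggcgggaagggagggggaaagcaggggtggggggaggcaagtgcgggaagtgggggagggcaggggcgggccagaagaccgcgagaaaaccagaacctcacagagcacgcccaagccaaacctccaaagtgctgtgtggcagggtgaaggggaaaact
Ntf3, second start: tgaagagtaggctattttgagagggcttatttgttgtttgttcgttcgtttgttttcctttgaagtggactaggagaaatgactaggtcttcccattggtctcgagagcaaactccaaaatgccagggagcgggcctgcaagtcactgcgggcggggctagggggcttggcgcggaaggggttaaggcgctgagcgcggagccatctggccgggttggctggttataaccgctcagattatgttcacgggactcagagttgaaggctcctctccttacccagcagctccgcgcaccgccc
RefSeq windows matched 4 of the 6 genes, 7 for Bdnf, 2 for Ntf3 and 1 each for Ngfr and Ntrk2; Ntrk3 and Sort1 had no entry. Both strands were searched for the cAMP response element TGACGTCA, for CGTCA, which that element contains, and for the early growth response motif GCGNGGGCG. Of all 32851 mouse windows, 1.79% held the first, 20.8% the second and 5.55% the third. Among the 11 windows the only match was CGTCA in the Bdnf window above. The value of Bdnf sums over its starts, so the levels below do not belong to any 1 window.

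HPF held the most neurotrophin RNA, and the Trk receptors ran in opposite orders across the tissues. Ntf3 was 48.7-fold lower in MDTH than in HPF and 34.2-fold higher in HPF than in PFC, Bdnf was highest in HPF, Ntrk2 was highest in MDTH, and Ntrk3 and Sort1 were highest in HPF and lowest in MDTH. These tissue differences, averaged over high and low performers, were tested in a limma fit to all 18 libraries on log2(normalized count + 1), with p-values adjusted by the Benjamini-Hochberg method over 18254 genes and a pass at an adjusted p below 0.05. In MDTH against HPF 5 of the 6 genes passed, 1 higher and 4 lower, where 58.1% of all genes passed, 29.1% higher and 29% lower. In MDTH against PFC 3 passed, 1 higher and 2 lower, where 40.7% of all genes did, 20.3% higher and 20.4% lower. In HPF against PFC 5 passed, 4 higher and 1 lower, where 45.5% of all genes did, 21.8% higher and 23.7% lower. The ranges of the tissues did not overlap for 5 of the 6 genes between MDTH and HPF (31% of all genes), 3 between MDTH and PFC (17.3%) and 3 between HPF and PFC (21.6%). The median log2 difference of the 6 genes was -1.19 in MDTH against HPF, -0.55 in MDTH against PFC and 0.49 in HPF against PFC, beside -0.02, 0.00 and 0.01 for all genes. The comparisons share libraries, so they do not count as separate evidence.

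**Figure D1:**
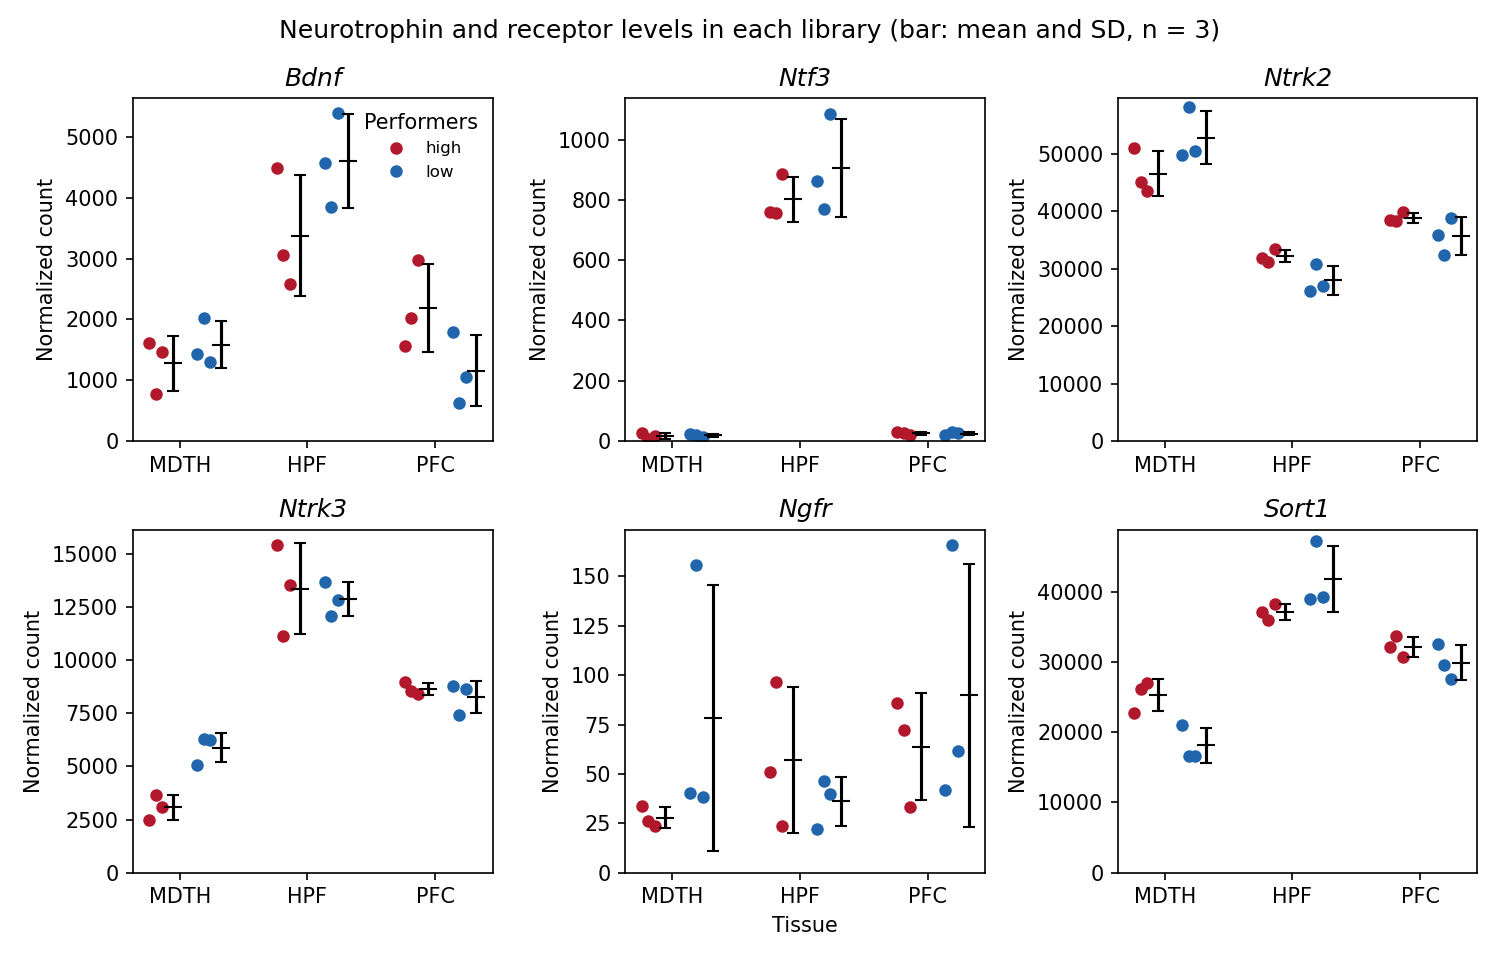
Normalized counts (y axis, linear) of the 6 genes in each library, by tissue (x axis), with high performers in red left of low performers in blue; the black mark and bar give the mean and SD of 3 libraries. Ntf3 lies at 756 to 1084 in HPF and at 31.0 or below in MDTH and PFC, and in MDTH the red and blue points of Ntrk3 and Sort1 do not overlap.

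Ntf3 (ENSMUSG00000049107, chromosome 6, 126101412 to 126166910, minus strand; gene coordinates are from GENCODE M21 on GRCm38) encodes the main ligand of TrkC. Its normalized counts in MDTH were 25.8, 7.93 and 15.8 in high and 21.9, 20.9 and 12.8 in low performers. In HPF they were 761, 756 and 887 in high and 862, 771 and 1084 in low performers, and in PFC 31.0, 26.3 and 19.9 in high and 18.3, 28.6 and 25.7 in low performers. Every HPF library stood above every library of the other tissues. The mean in MDTH was 17.5 ± 6.59, against 854 ± 126 in HPF (SD, n = 6 each), which is 48.7-fold lower (log2 difference -5.61, SE 0.25, limma adjusted p = 4.05e-11). HPF was 34.2-fold higher than PFC at 25.0 ± 4.93 (SD, n = 6; log2 difference 5.05, SE 0.25, adjusted p = 4.54e-10). MDTH and PFC were neighbours that the test did not separate (-0.55, adjusted p = 0.0878), at between 6.0 and 24.9 estimated reads per library. That difference passed without MDTH high 1 (-0.74, adjusted p = 0.0162).

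Bdnf (ENSMUSG00000048482, chromosome 2, 109674700 to 109727007, plus strand) encodes the main ligand of TrkB and is induced by neuronal activity. In MDTH it stood at 1610, 767 and 1465 normalized counts in high and at 1437, 2018 and 1301 in low performers. In HPF it stood at 4495, 3058 and 2577 in high and at 4567, 3844 and 5401 in low performers, and in PFC at 1562, 2020 and 2979 in high and at 1786, 627 and 1060 in low performers. All HPF libraries exceeded all MDTH libraries, while the highest PFC library lay within the HPF range. MDTH was 2.78-fold lower than HPF, 1433 ± 409 against 3990 ± 1045 normalized counts (SD, n = 6 each; log2 difference -1.49, SE 0.26, adjusted p = 0.000119). HPF was 2.39-fold higher than PFC at 1672 ± 815 (log2 difference 1.37, SE 0.26, adjusted p = 0.000398). MDTH and PFC were not separated (-0.12, 95% interval -0.66 to 0.43, adjusted p = 0.756). An antisense gene, Gm45346, overlaps the start of Bdnf at a mean of 7.59 normalized counts, and whether counting used strand is not given in the sources used here.

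Ntrk2 (ENSMUSG00000055254, chromosome 13, 58806569 to 59133970, plus strand), the BDNF receptor TrkB, was the 1 gene of the 6 with its highest level in MDTH. MDTH libraries held 51059, 45138 and 43502 normalized counts in high and 49848, 58092 and 50579 in low performers. HPF libraries held 31932, 31253 and 33456 in high and 26094, 30864 and 26912 in low performers, and PFC libraries 38506, 38259 and 39826 in high and 35832, 32370 and 38905 in low performers. The MDTH range lay above both others, and the HPF and PFC ranges overlapped. MDTH was 1.65-fold higher than HPF (log2 difference 0.72, SE 0.06, adjusted p = 1.14e-07) and 1.33-fold higher than PFC (0.41, SE 0.06, adjusted p = 8.40e-05). HPF was 1.24-fold lower than PFC (-0.31, SE 0.06, adjusted p = 0.000935), a call that ended under quantile normalization (-0.16, adjusted p = 0.0942). Of 10 astrocyte genes, 5 also had their highest mean in MDTH, 4 in HPF and 1 in PFC. Fgfr3, for example, stood at 8192 to 11611 normalized counts in MDTH, 4223 to 8438 in HPF and 5222 to 6970 in PFC. Summed over the 10 genes, of which Slc1a2 is the most abundant, the level was 216282 to 272168 in MDTH, 249774 to 453965 in HPF and 263688 to 301238 in PFC, and the part of astrocytes in the Ntrk2 order was not tested.

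Ntrk3 (ENSMUSG00000059146, chromosome 7, 78175959 to 78738012, minus strand), the receptor TrkC, had the reverse order. MDTH libraries held 2460, 3670 and 3088 normalized counts in high and 5085, 6302 and 6263 in low performers. HPF libraries held 15417, 11142 and 13542 in high and 13705, 12106 and 12849 in low performers, and PFC libraries 8985, 8571 and 8417 in high and 8814, 7424 and 8639 in low performers. No tissue's range touched another's. MDTH was 2.93-fold lower than HPF (log2 difference -1.63, SE 0.10, adjusted p = 1.27e-09) and 1.89-fold lower than PFC (-1.01, SE 0.10, adjusted p = 5.52e-07), and HPF was 1.55-fold higher than PFC (0.63, SE 0.10, adjusted p = 8.39e-05). The antisense gene Gm9885 overlaps Ntrk3 at a mean of 139 normalized counts.

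Sort1 (ENSMUSG00000068747, chromosome 3, 108284082 to 108361511, plus strand) encodes sortilin, which binds precursor neurotrophins at the surface and sorts proteins, BDNF among them, inside the cell. MDTH libraries held 22736, 26110 and 27002 normalized counts in high and 21038, 16638 and 16663 in low performers. HPF libraries held 37124, 36036 and 38225 in high and 39013, 47263 and 39270 in low performers, and PFC libraries 32094, 33639 and 30679 in high and 32575, 29544 and 27571 in low performers. These ranges also stood clear of one another. MDTH was 1.82-fold lower than HPF (-0.88, SE 0.07, adjusted p = 6.06e-08) and 1.43-fold lower than PFC (-0.54, SE 0.07, adjusted p = 2.40e-05), and HPF was 1.27-fold higher than PFC (0.35, SE 0.07, adjusted p = 0.00129).

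Ngfr (ENSMUSG00000000120, chromosome 11, 95568818 to 95587735, minus strand), the receptor p75, was the exception, with no tissue order. Its normalized counts in MDTH were 33.8, 26.3 and 23.6 in high and 40.2, 156 and 38.5 in low performers. In HPF they were 50.7, 96.5 and 23.8 in high and 22.2, 46.2 and 39.9 in low performers, and in PFC 85.7, 72.2 and 33.4 in high and 41.9, 166 and 61.4 in low performers. The ranges of all tissues overlapped, and no tissue difference passed (adjusted p = 0.981 for MDTH against HPF, 0.256 for MDTH against PFC and 0.231 for HPF against PFC). The 95% interval of MDTH minus HPF, -0.94 to 0.96 on the log2 scale, leaves room for a difference in either direction. Libraries held 18 to 168.4 estimated reads of Ngfr. Its highest libraries in HPF and PFC, HPF high 2 and PFC low 2, were among the 4 with the high choroid plexus sums, while its highest in MDTH, MDTH low 2, had a choroid sum of 5596; the part of choroid or ependymal tissue in the Ngfr values was not tested.

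**Figure D2:**
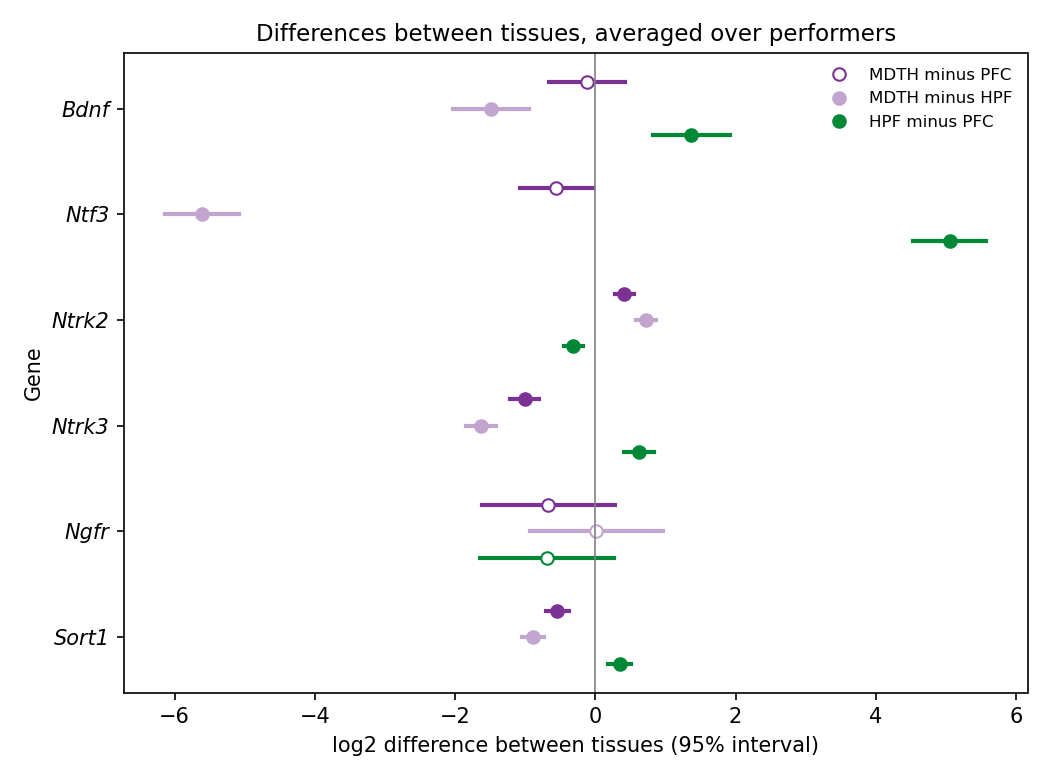
Log2 differences between tissues (x axis) of the 6 genes (y axis) with 95% intervals from the fit to 18 libraries; filled points passed at an adjusted p below 0.05. Ntf3 lies farthest from 0, at -5.61 for MDTH minus HPF and 5.05 for HPF minus PFC, and Ngfr crosses 0 in every comparison.

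Levels were compared between genes per kilobase of exon, as normalized counts divided by the union length of all annotated exons. Sort1 led in HPF at 5217 ± 528 per kilobase and in PFC at 4098 ± 293, with Ntrk2 behind it at 1559 ± 152 and 1933 ± 143 (SD, n = 6 each). In MDTH Sort1 at 2867 ± 591 and Ntrk2 at 2576 ± 267 lay within their spread, and with the longest transcript as the length Ntrk2 came first there (5684 ± 588 against 3174 ± 654). By that length Sort1 and Ntrk2 lay within their spread in PFC, at 4537 ± 325 and 4264 ± 314, while Sort1 still led in HPF, at 5777 ± 584 and 3441 ± 334. Bdnf, at 230 ± 65.7 in MDTH, 642 ± 168 in HPF and 269 ± 131 in PFC, was of the same order as Ntrk3, at 148 ± 54.5, 435 ± 48.7 and 281 ± 18.3. Ntf3 matched this range in HPF alone, at 498 ± 73.4, against 10.2 ± 3.84 in MDTH and 14.6 ± 2.88 in PFC. Ngfr stayed at 13.5 to 22.3 per kilobase on average in every tissue.

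The share of the log2 variance that lay between tissues was 98.0% for Ntf3, 85.3% for Ntrk2, 82.2% for Ntrk3, 79.5% for Sort1 and 62.5% for Bdnf. The median of the 18254 genes was 44.0%. For Ngfr it was 14.6%, and 65.5% lay within groups, against a median of 25.8% over all genes. Performance within tissue accounted for 13.8% of the variance of both Ntrk3 and Sort1, 15.2% of Bdnf, 19.9% of Ngfr, 7.47% of Ntrk2 and 0.133% of Ntf3, with a median of 17.6% over all genes.

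Within MDTH, high performers had less Ntrk3 and more Sort1 than low performers, and the other 4 genes did not pass. This was 1 gene higher and 1 lower of 6, where 25% of the 17861 genes tested in MDTH passed, 12.5% in each direction. Performance was tested within a tissue from its 6 libraries alone, on the scale and by the rule given above. Groups did not overlap for 3 of the 6 genes in MDTH, a state shared by 44.2% of all genes there. The median log2 difference of the 6 was -0.31, beside 0.00 for all genes.

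Ntrk3 was 1.91-fold lower in MDTH high performers, at 3073 ± 605 normalized counts against 5883 ± 692 in low performers (SD, n = 3 each; log2 difference -0.95, SE 0.16, 95% interval -1.32 to -0.57, limma adjusted p = 0.00864). The highest high library, at 3670, lay below the lowest low library, at 5085. Sort1 was 1.40-fold higher in MDTH high performers, at 25283 ± 2250 against 18113 ± 2533 in low performers (SD, n = 3 each; log2 difference 0.49, SE 0.12, 95% interval 0.21 to 0.77, adjusted p = 0.0261). Its lowest high library, at 22736, lay above its highest low library, at 21038. The Sort1 call was lost without any 1 of MDTH high 2, MDTH high 3, MDTH low 2 and MDTH low 3 (adjusted p = 0.0808, 0.0797, 0.0853 and 0.0933), and quantile normalization brought the log2 difference to 0.31. Ntrk3 passed in all 14 alternative fits, at -1.09 to -0.80.

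Marker genes of relay neurons and of other cells moved with these MDTH differences. The relay neuron sum was 232787 to 265608 in high and 130340 to 177485 in low performers. The sum of 8 inhibitory neuron genes was 2183 to 2773 in high and 5716 to 24228 in low performers, and the sum of 7 habenular genes 1155 to 1711 in high and 3166 to 26997 in low performers. All members of these lists were above 0 in every MDTH library, but not all moved with the sum. Of the 8 relay genes 5 (Prkcd, Gbx2, Rora, Slc17a6 and Synpo2) were higher in every high than in any low library, Tcf7l2 was lower throughout, at 29165, 23166 and 24746 in high and 37512, 36967 and 33191 in low libraries, and 2 overlapped. Of the inhibitory genes 4 of 8 and of the habenular genes 5 of 7 were lower in every high library, and the others overlapped. Gad2, an enzyme of GABA synthesis, stood at 536, 495 and 437 in MDTH high and at 9547, 2839 and 2457 in MDTH low libraries, and Prkcd, a protein kinase of relay neurons, at 56378, 71303 and 85715 in high and at 31847, 11873 and 16153 in low libraries. Cortical genes ran from 24652 to 30896 in high and from 11096 to 19351 in low performers, with 2 of 8, Slc17a7 and Rorb, higher in every high library and 6 overlapping. None of the ranges of these sums overlapped between high and low performers. The share of signal from mitochondrial genes, which can vary with RNA quality among other things, also stood apart. It was 5.53% to 6.396% in MDTH high and 6.52% to 8.52% in MDTH low performers. It was 6.51% to 8.63% in HPF high and 4.66% to 6.25% in HPF low performers, and 5.25% to 5.59% in PFC high and 8.25% to 8.79% in PFC low performers. The part of these values in the Ntrk3 and Sort1 differences was not tested.

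**Figure D3:**
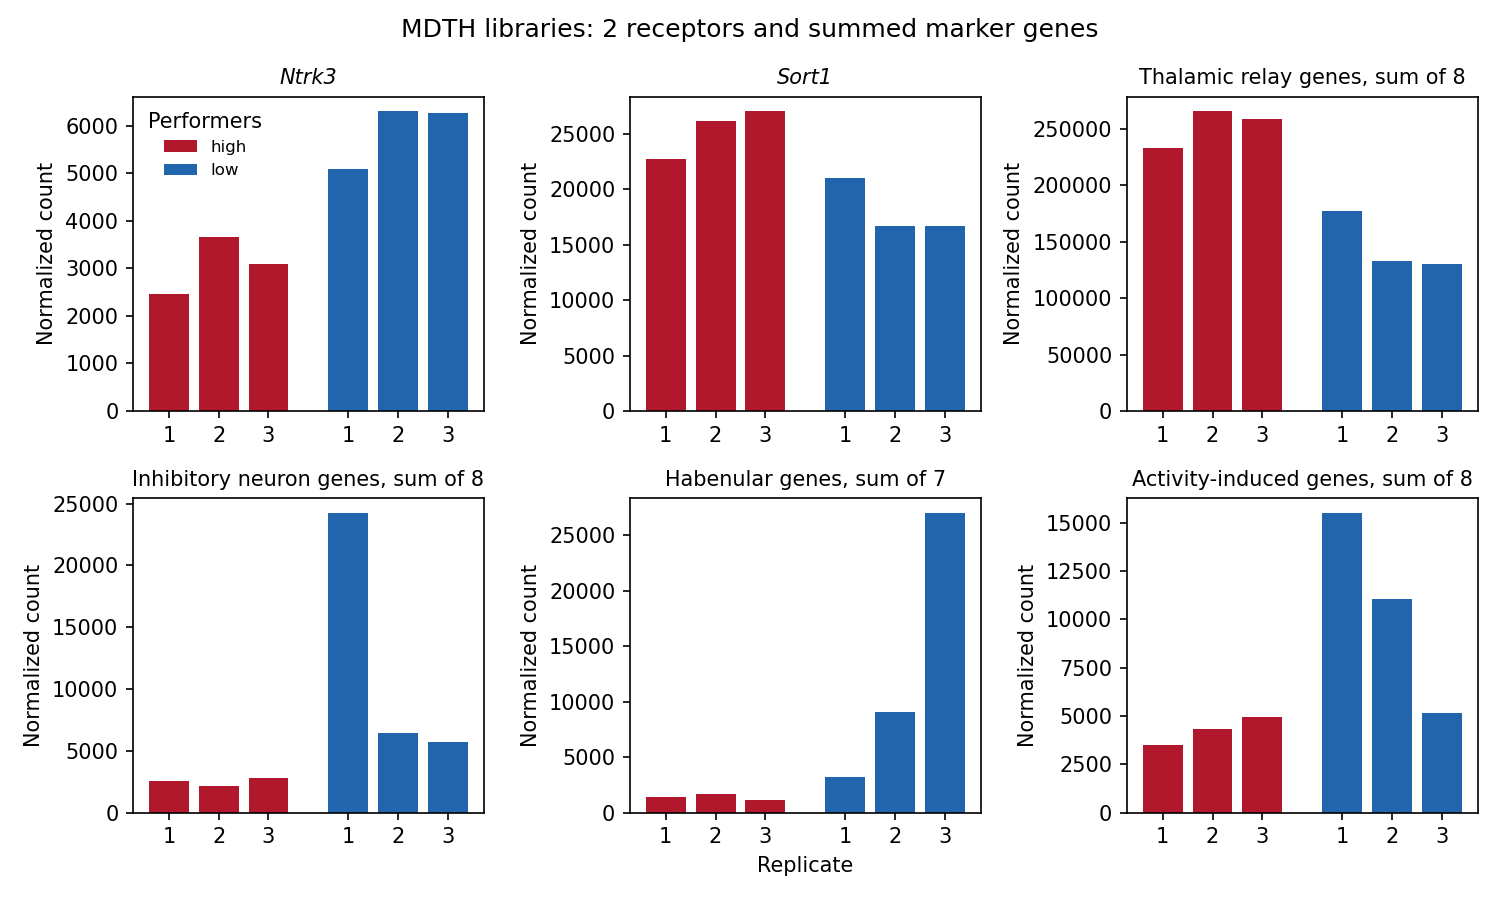
Normalized counts (y axes, from 0) of Ntrk3 and Sort1 and summed normalized counts of 4 marker lists in the MDTH libraries (x axis, replicate), high performers in red left of low performers in blue. Ntrk3 and the inhibitory, habenular and activity-induced sums are lower, and Sort1 and the relay sum higher, in every high library than in any low library.

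The ligands did not pass in MDTH. Bdnf averaged 1280 ± 450 normalized counts in the high group and 1585 ± 381 in the low group, with overlapping groups (log2 difference -0.35, 95% interval -1.06 to 0.35, adjusted p = 0.419). Ntf3 averaged 16.5 ± 8.95 in high and 18.5 ± 5.02 in low performers (-0.26, -1.54 to 1.01, adjusted p = 0.753). Ntrk2 averaged 46566 ± 3976 in high and 52840 ± 4563 in low performers (-0.18, -0.42 to 0.06, adjusted p = 0.225; SD, n = 3 for all). The Ngfr groups did not overlap, 27.9 ± 5.31 in high against 78.2 ± 67.3 in low performers, but the log2 difference of -1.15 had a 95% interval from -2.50 to 0.20 (adjusted p = 0.182) and was -0.50 without MDTH low 2.

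In HPF none of the 6 genes passed by limma, nor did any at an unadjusted p below 0.05, and only 0.0166% of the 18082 genes tested there did pass, 0.0111% higher and 0.00553% lower. The groups of Ntrk2 and Sort1 did not overlap, which was so for 20% of all genes. Ntrk2 averaged 32214 ± 1128 in high and 27957 ± 2551 in low performers (log2 difference 0.21, 95% interval -0.01 to 0.43, adjusted p = 0.400), and Sort1 37129 ± 1095 in high and 41849 ± 4691 in low performers (-0.17, -0.41 to 0.08, adjusted p = 0.531; SD, n = 3 each). Both lay in the direction opposite to MDTH. Bdnf averaged 3377 ± 998 in high and 4604 ± 779 in low performers (-0.47, -0.98 to 0.04, adjusted p = 0.403), and Ntf3 801 ± 74.1 in high and 906 ± 161 in low performers (-0.17, -0.52 to 0.19, adjusted p = 0.673). Ntrk3 was close to even, 13367 ± 2143 in high against 12887 ± 800 in low performers (0.04, -0.26 to 0.34, adjusted p = 0.915), and Ngfr averaged 57.0 ± 36.8 in high and 36.1 ± 12.4 in low performers (0.49, -0.80 to 1.79, adjusted p = 0.735). Cortical marker sums also stood apart in HPF, at 76152 to 89888 in high and 104624 to 122873 in low performers. Of the 8 cortical genes 3 were higher and 3 lower in every high library. Relay sums overlapped, but 6 of the 8 relay genes were higher and 1 lower in every high library. HPF high 2 held 3954 normalized counts of Slc17a6 and 2984 of Tcf7l2, against 132 to 392 and 151 to 301 in the other HPF libraries. Of the 8 hippocampal genes 2, C1ql2 and Wfs1, were higher and 2, Cpne4 and Grik4, lower in every high library. The part of these marker genes in the HPF values of the 6 genes was not tested.

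In PFC none of the 6 passed by limma, where 5.85% of 17991 genes did (3.22% higher and 2.63% lower), and none had groups that did not overlap, against 30.9% of all genes. At an unadjusted p below 0.05 there was 1, Bdnf. By this test Bdnf ranked only 3881 of the 17991 genes, so at least 3881 genes reached that threshold and Bdnf did not stand out. Bdnf averaged 2187 ± 723 normalized counts in the high group and 1158 ± 586 in the low group (SD, n = 3 each). That was 1.89-fold higher in high performers. Its log2 difference was 0.99 (SE 0.39, 95% interval 0.07 to 1.92, limma adjusted p = 0.180). The difference was 0.62 without PFC low 2. It was 0.46 without the libraries rich in choroid plexus genes, which left PFC low 1 as the only low library. Over 15 alternative fits it ranged from 0.46 to 1.37. Activity-induced genes, summed over 8 (Fos, Fosb, Junb, Egr1, Egr2, Npas4, Nr4a1 and Arc), ran the other way from Bdnf, at 23516 to 25727 in PFC high and 40052 to 116574 in PFC low performers. In MDTH that sum was 3508 to 4956 in high and 5169 to 15493 in low performers. In HPF it overlapped, at 9193 to 10418 in high and 8507 to 16176 in low performers. Of the 8 genes 5 in PFC, 4 in MDTH and 1 in HPF were lower in every high library, and the others overlapped.

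No receptor passed in PFC. Ntrk3 averaged 8658 ± 294 in high and 8292 ± 757 in low performers (0.07, 95% interval -0.14 to 0.27, adjusted p = 0.685). Ntrk2 averaged 38864 ± 843 in high and 35702 ± 3269 in low performers (0.13, -0.08 to 0.33, adjusted p = 0.423), and Sort1 32137 ± 1481 in high and 29897 ± 2520 in low performers (0.11, -0.10 to 0.31, adjusted p = 0.496). These intervals leave out a change of the size seen for Ntrk3 in MDTH. Ngfr at 63.8 ± 27.2 in high and 89.8 ± 66.7 in low performers (-0.34, -1.73 to 1.04, adjusted p = 0.752) and Ntf3 at 25.7 ± 5.57 in high and 24.2 ± 5.30 in low performers (0.09, -0.84 to 1.02, adjusted p = 0.910) were measured too loosely for such a limit (SD, n = 3 for all).

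**Figure D4:**
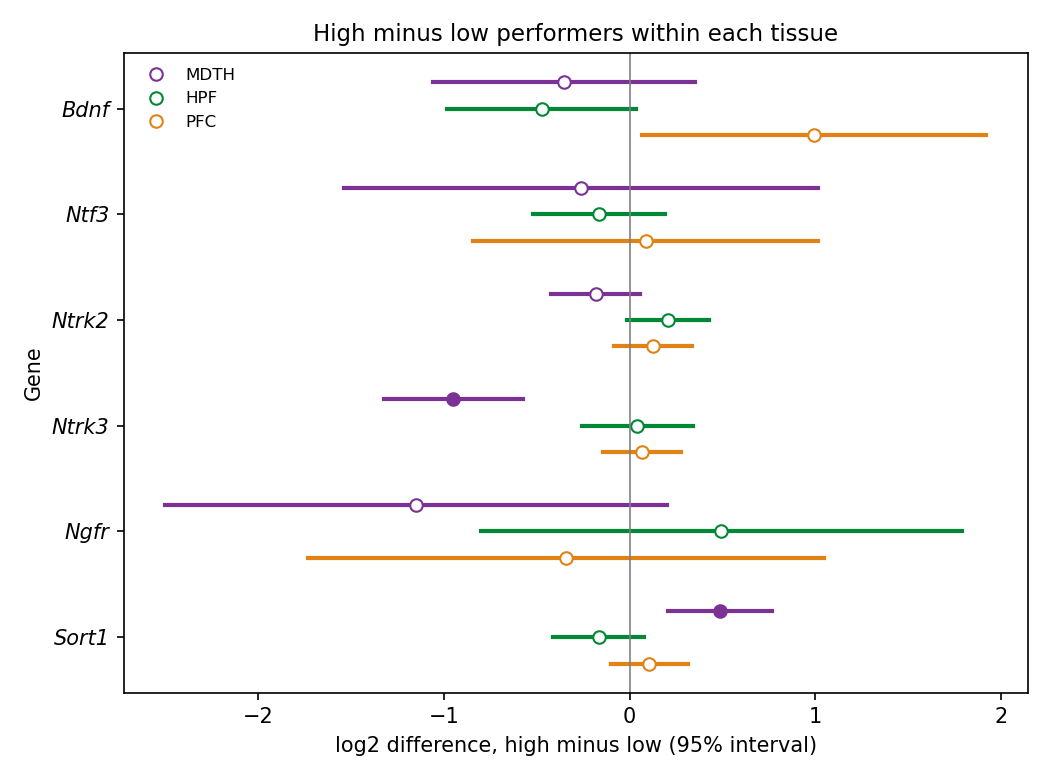
Log2 differences, high minus low performers (x axis), of the 6 genes (y axis) in each tissue, with 95% intervals; filled points passed at an adjusted p below 0.05. The filled points are Ntrk3 at -0.95 and Sort1 at 0.49, both in MDTH.

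The high minus low differences of 2 tissues were then compared with each other, as interaction terms of the fit to 18 libraries. High libraries carry the same numbers inside their names in every tissue, whereas those of the low libraries differ in part between tissues. What these numbers mark is not given in the sources used here. A performance difference particular to a tissue and a difference between the low sets therefore cannot be told apart. Ntrk3 in MDTH differed from Ntrk3 in HPF by -0.99 (SE 0.20, limma adjusted p = 0.00307) and from Ntrk3 in PFC by -1.01 (SE 0.20, adjusted p = 0.0107). The difference from PFC was -0.90 without the choroid-rich libraries, which left 1 PFC low library. Sort1 in MDTH differed from HPF by 0.65 (SE 0.15, adjusted p = 0.00702) and from PFC by 0.38 (SE 0.15, adjusted p = 0.206). Ntrk2 in MDTH differed from HPF by -0.39 (SE 0.13, adjusted p = 0.0458), a call that held in 10 of 27 alternative fits. Bdnf in HPF differed from PFC by -1.47 (SE 0.51, adjusted p = 0.0885) and passed in 1 of 27 alternative fits, the fit without PFC low 1 (-1.84, adjusted p = 0.0262). In all, MDTH against HPF gave 1 of the 6 genes higher and 2 lower, where 19% of all genes passed, 10.5% higher and 8.52% lower. MDTH against PFC gave 1 lower, where 3.41% of all genes passed, 0.871% higher and 2.54% lower. HPF against PFC gave none, where 9.14% passed, 3.37% higher and 5.77% lower.

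Ratios within a library do not depend on any factor shared by all its genes and are given as a description. Whether the authors' normalization factors also differed between genes is not given in the sources used here. Ntrk2 over Ntrk3 was 20.8, 12.3 and 14.1 in MDTH high and 9.80, 9.22 and 8.08 in MDTH low libraries, so the balance of TrkB over TrkC RNA was larger in every high library. In HPF it averaged 2.45 ± 0.367 in high and 2.18 ± 0.332 in low performers, and in PFC 4.49 ± 0.225 in high and 4.31 ± 0.223 in low performers (n = 3 each, SD). Bdnf over Ntf3 averaged 84.0 ± 18.8 in MDTH high and 88.0 ± 19.7 in MDTH low performers, 4.29 ± 1.51 in HPF high and 5.09 ± 0.183 in HPF low performers, and 92.3 ± 51.4 in PFC high and 53.6 ± 39.3 in PFC low performers. HPF therefore stood apart in both ratios, and performance groups overlapped in the ligand ratio of every tissue.

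**Figure D5:**
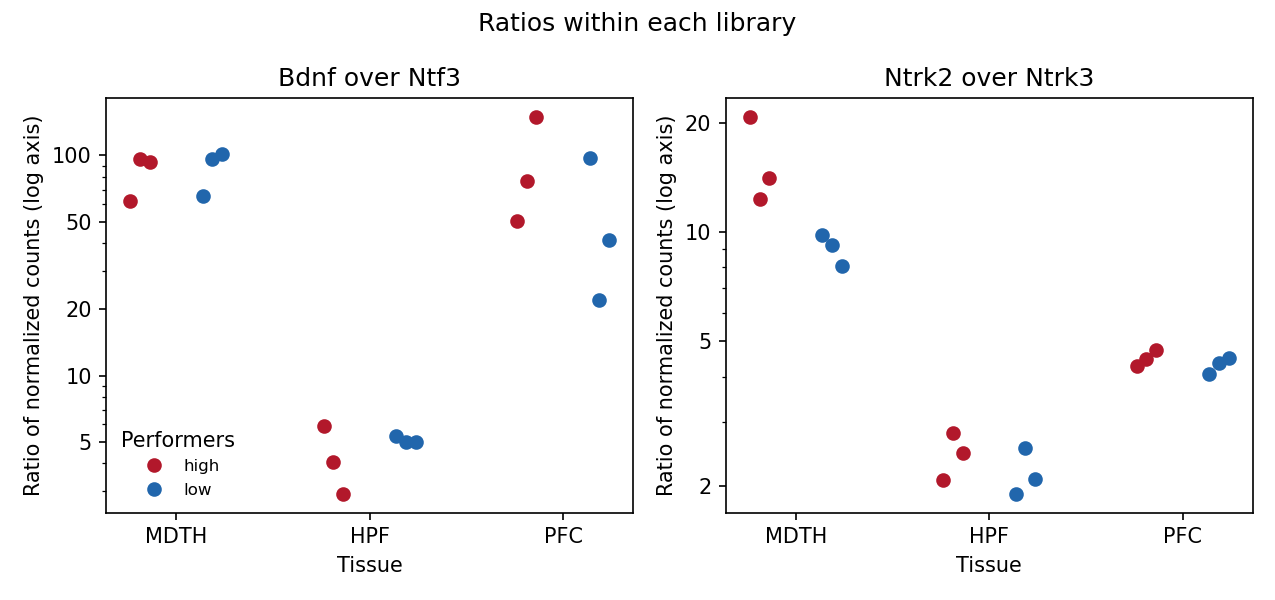
Ratio of normalized counts within each library (log y axis) by tissue (x axis), high performers in red left of low performers in blue; left panel Bdnf over Ntf3, right panel Ntrk2 over Ntrk3. Only in MDTH do the red and blue points of Ntrk2 over Ntrk3 separate, at 12.3 to 20.8 in high and 8.08 to 9.80 in low performers.

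Genes that process neurotrophins, pair with p75 or signal below the Trk receptors, together with the family genes outside the 6, made up 84 further genes, 82 of them tested in MDTH and HPF and 81 in PFC. In MDTH 13 were higher and 19 lower in high performers, where 12.5% of all genes passed in each direction. In HPF none passed by limma (18 at an unadjusted p below 0.05), against 0.0166% of all genes, and in PFC 6 were higher and 3 lower, against 3.22% and 2.63% of all genes. Their median log2 difference was -0.10 in MDTH, -0.03 in HPF and -0.01 in PFC, beside 0.00, -0.01 and -0.01 for all genes. In MDTH the 16 tested genes of precursor processing and secretion gave 1 higher and 6 lower, the 15 partners of p75 gave 1 higher and 5 lower, and the 49 adaptors and enzymes of Trk signalling gave 11 higher and 8 lower. Named by the smallest p among those that passed in MDTH, the adaptor Crk (0.46, adjusted p = 0.00707) and Pik3ca, a catalytic subunit of PI3 kinase (0.42, adjusted p = 0.0180), were higher. Sos2, which loads Ras with GTP (-1.001, adjusted p = 0.00294), and the adaptors Gab1 (-0.86, adjusted p = 0.00430) and Sh2b2 (-1.35, adjusted p = 0.00430) were lower. Sos2 held 1793, 2283 and 1979 normalized counts in MDTH high and 4206, 3854 and 4010 in MDTH low libraries, which did not overlap.

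In PFC the sortilin relative Sorcs3 (0.89, adjusted p = 0.0112), the adaptor Grb2 (0.57, adjusted p = 0.0244) and the kinase Map2k1 (0.51, adjusted p = 0.0381) were higher in high performers. Sos2 (-0.82, adjusted p = 0.0172), Mapk3, the kinase ERK1 (-0.70, adjusted p = 0.0321), and Mapk7, the kinase ERK5 (-0.53, adjusted p = 0.0460), were lower. Cadps2, which promotes the release of dense-core vesicles, held 194, 158 and 210 normalized counts in MDTH high and 1125, 1222 and 3665 in MDTH low libraries. In HPF it held 4294, 4193 and 4078 in high and 2945, 2958 and 2649 in low libraries, and in PFC 6986, 6350 and 7201 in high and 5583, 4849 and 5237 in low libraries. Its high minus low difference in MDTH less that in HPF was -3.755 (limma adjusted p = 7.73e-05), and less that in PFC -3.59 (adjusted p = 0.000341).

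Between tissues 29 of the 82 pathway genes were higher and 31 lower in MDTH than in HPF, where 58.1% of all genes passed. In MDTH against PFC 18 were higher and 33 lower (40.7% of all genes passed), and in HPF against PFC 24 were higher and 31 lower (45.5% of all genes). Against HPF, MDTH had more Shc3, a neuronal Shc adaptor (log2 difference 2.73), more Gab2 (1.78) and more of the sortilin relative Sorcs1 (1.74), and less Map2k1 (-1.58) and Slitrk5, a TrkB co-receptor (-1.44). Against PFC, MDTH had more Sorcs2 (1.25), Shc3 (1.27) and Hap1, which takes part in the transport of precursor BDNF (1.28), and less Cadps2 (-3.40), Slitrk5 (-1.20) and Pik3r2 (-1.03). HPF had more Map2k1 (0.86) and Nedd4l (0.80) and less Sorcs1 (-2.33), Gab2 (-1.38) and Pik3r1 (-1.17) than PFC. All of these passed, with limma adjusted p from 1.60e-12 to 4.79e-06.

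Genes with the most similar pattern were ranked by the root mean square distance of centred log2 values over the 18 libraries, where a small distance means parallel values. The distance is a description over 3 tissues and says nothing of shared function. Ntf3 was nearest to Il16 (0.459) and Vwa3b (0.642), while its own spread about its mean was 2.55. Il16 held 2414 to 5082 normalized counts in HPF and 62.6 to 146 elsewhere. Bdnf was nearest to Zfp771 (0.407), Mnd1 (0.449) and Gpc2 (0.454), with an own spread of 0.855. Ntrk2 was nearest to Gfpt1 and Acly (both 0.130) and Scaper (0.136), with an own spread of 0.321.

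Ntrk3 was nearest to Arhgap20 (0.207), Sgsm2 (0.218) and Frat1 (0.248), with an own spread of 0.741. Arhgap20 shared its MDTH pattern, at 1798, 1891 and 1722 normalized counts in high and 3377, 3949 and 4140 in low libraries. Sort1 was nearest to Arpc3 (0.114), Pcdh1 (0.121) and Nmt1 (0.144), with an own spread of 0.408. The nearest gene to Ngfr was Zfp820 (0.522), with an own spread of 0.839. Ntf5, a further neurotrophin gene, reached at most 27.1 normalized counts in any library.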

How the data were processed

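RNA was sequenced from 18 libraries. The kit, TruSeq stranded mRNA, is known per the labels' protocols. The authors used Salmon, STAR and DESeq2, per the submitters' processing notes; which did what, their versions, the build and the annotation are not given in the sources used here. Deposited was a signal table of gene counts that the authors had divided by normalization factors, one value per gene and library. All 18 columns matched a sample and 0 were left over, and 17137 of 48440 genes were at 0 throughout. Low values taken as multiples of the commonest low value were whole within 0.02 of a read for 22.0% to 68.1% per library, so whole reads were not recovered and no count test was run. Depths and read numbers in the text are estimates from that step. Gene identifiers matched GENCODE M21 (GRCm38) for 48058 of 48440 genes.

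Values were analysed as log2(normalized count + 1), a scale that understates changes of low genes, with limma 3.58.1 in R 4.3.3. Genes with a mean of at least 10 were kept, a mean-variance trend was used, tests were two-sided, and Benjamini-Hochberg adjustment ran over all genes kept, with 0.05 as the threshold. High and low performers were compared within each tissue, and tissues and interactions in 1 fit with 6 group means. Fold changes are ratios of mean normalized counts. The fits were tested on simulated data. Alternatives were other pseudocounts and filters, rescaling by trimmed means, quantile normalization, no trend, blocks and leaving out each library. Python 3.11.15, pandas 2.3.3, numpy 2.4.6 and matplotlib 3.10.9 were used for tables and figures.

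Nothing in the labels states that libraries of a group are separate animals. The p-values therefore describe only how these libraries spread, which may be technical. The numbers inside library names recur across tissues, and the 11 pairs of libraries from different tissues with the same number deviated together from their group means (correlation 0.346 to 0.611), so a replicate block by that number was fitted as an alternative for comparisons between tissues. The 6 genes and all gene lists were chosen with earlier results of these data known. Named genes were the 6, the other family genes, the 3 pathway genes with the smallest p in each direction among those that passed, with examples for the interactions, and the 3 nearest genes in pattern; some genes that this rule took are not reported here. Gad2, other single marker genes and the overlapping genes were named after their values were seen.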

Additional observations from a re-analysis of the deposited data

Results flagged for a closer look

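The high minus low difference of 3 genes differed between tissues by the interaction test over 18 libraries (limma, adjusted over all genes). The numbers inside the names of low libraries differ in part between tissues, so tissues and their low sets cannot be told apart here. For Ntrk3 the difference in MDTH lay below that in PFC by -1.01 (SE 0.20, adjusted p = 0.0107) and below that in HPF by -0.99 (SE 0.20, adjusted p = 0.00307); it was lower in 3 of 3 MDTH high libraries than in any MDTH low library. For Sort1 the difference in MDTH lay above that in HPF by 0.65 (SE 0.15, adjusted p = 0.00702), with the groups apart in opposite directions in both tissues. For Ntrk2 the difference in MDTH minus that in HPF was -0.39 (SE 0.13, adjusted p = 0.0458), with overlapping groups in MDTH.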

How the results depend on the processing

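Of 1236 alternative fits of 54 results for the 6 genes, 1169 kept direction and side of the threshold. Of the genes passing between high and low performers in MDTH, 2 as reported, Ntrk3 was left alone (1) without the mean-variance trend and with a replicate block by title number; leaving out 1 library gave 1 to 2. Sort1 then had adjusted p = 0.0655 and 0.0791 (0.00286 to 0.0933 over its 14 alternatives). Title numbers did not pair libraries (9 pairs, correlation -0.127 to 0.092). The replicate block by name number changed no member's call. Interactions gave 1 to 2 genes (MDTH against PFC) and 0 to 1 (HPF against PFC) leaving out 1 library. Removing the 4 choroid-rich libraries, an alternative chosen after seeing the data, left 1 PFC low library, so its calls are not given.

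No value that passed reversed. Reversals were Ngfr MDTH minus HPF (-0.013 with trimmed means), Ntf3 high minus low in MDTH (0.029) and its MDTH minus HPF interaction (0.205) with quantile normalization, and the Ntrk3 HPF minus PFC interaction (0.065 with quantile normalization, 0.016 with the name-number block, 0.22 without choroid-rich libraries). Without those libraries, with 1 PFC low library left, PFC high minus low became -0.053 for Ntrk3, 0.23 for Ngfr and -0.020 for Sort1. The Ngfr HPF minus PFC interaction became -0.21. Leaving out 1 library gave ranges through 0 for Bdnf (MDTH minus PFC -0.31 to 0.070; MDTH minus HPF interaction -0.081 to 0.45), Ngfr (MDTH minus HPF -0.31 to 0.26; high minus low in PFC -0.76 to 0.22), Ntf3 (high minus low in MDTH -0.64 to 0.15 and PFC -0.095 to 0.25; interactions MDTH minus HPF -0.47 to 0.32 and MDTH minus PFC -0.72 to 0.068) and Ntrk3 (high minus low in HPF -0.067 to 0.17 and PFC -0.012 to 0.11; HPF minus PFC interaction -0.13 to 0.10). The cause was not tested.

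Counts over all genes moved more. High minus low in PFC, 1053 genes, fell to 52 without the trend and 0 with the title-number block. It was 2529 with all 18 libraries in the fit and 7 to 1306 leaving out 1. MDTH, 4470 genes, gave 2425 with the title-number block and 1839 to 4223 leaving out 1. HPF, 3 genes, gave 6 at a pseudocount of 0.5, 11 without the filter, 7 with quantile normalization, 0 with the block, 265 with all 18 libraries and 0 to 15 leaving out 1. The MDTH minus PFC interaction, 623 genes, gave 1034 with the name-number block and 278 to 1004 leaving out 1. HPF minus PFC, 1669 genes, gave 896 to 1818 leaving out 1. Counts without the choroid-rich libraries are not given, because 1 PFC low library was left. Ntf3 and Ngfr are limited by their few reads.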
